A study of Mus musculus with 16 samples.

Results

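Six3, Rax, Emx2, Otx2, En1, En2, Gbx2 and Egr2 are transcription factor genes that mark successive territories of the early brain, and they are described here in order from forebrain to hindbrain. They were taken by gene symbol from the count files, where each had 1 row, so they are 8 of the 26411 genes listed. All 8 had enough counts to enter the test, among 15679 genes tested. The neural plate is divided along its length by factors whose domains meet at sharp borders. Six3 and Rax act in the anterior forebrain and the eye field, Emx2 in the dorsal telencephalon, and Otx2 throughout forebrain and midbrain. Otx2 meets Gbx2, the anterior hindbrain factor, at the midbrain-hindbrain boundary, where the engrailed genes En1 and En2 are transcribed, and the zinc finger factor Egr2 marks alternate segments of the hindbrain.

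The study made RNA-sequencing libraries of 16 whole mouse embryos at E9.5, 4 of each of 4 genotypes that differed in the histone acetyltransferase genes Kat6a and Kat6b. The wild-type embryos were Kat6a+/+ Kat6b+/+, and the mutants were Kat6a-/- Kat6b+/+ embryos (called Kat6a-/- below), which carried a null allele that lacks internal exons. Kat6a+/+ Tg(Kat6b) embryos (called Tg(Kat6b)) carried extra copies of the whole Kat6b gene on a bacterial artificial chromosome, from a single germline founder, and Kat6a-/- Tg(Kat6b) embryos combined both alleles. All were on a mixed FVB and BALB/c background, and each genotype held embryos of both sexes. The comparisons asked which mRNA levels depend on Kat6a and which of these are altered when Kat6b is overexpressed.

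Counts per embryo summed to between 14407277 and 45665680, and no 2 embryos of a genotype agreed within sampling noise. Kat6b mRNA stood at 46.2 ± 2.45 CPM (counts scaled to library size, SD, n = 4) in wild-type and 197 ± 4.92 in Kat6a-/- Tg(Kat6b) embryos. Kat6a counts over the whole gene did not separate the genotypes (199 ± 16.5 CPM in wild-type against 202 ± 15.2 in Kat6a-/- embryos). The counts are per gene, so the deleted exons were not examined and these counts do not show the Kat6a genotype. Defining markers of neural progenitors, neurons, heart muscle, somites and primitive erythroid cells were above 0 in each group, as their labels (whole embryo) imply. The Kat6a-/- embryos came from litters 801 and 803, which also held wild-type replicates 1 and 2, and the Tg(Kat6b) embryos came from litters 2597 and 2598, which also held wild-type replicates 3 and 4. The 4 Kat6a-/- Tg(Kat6b) embryos came from litters 483 and 498, which held no other genotype here, so that litter and genotype cannot be told apart in any comparison with them. In whole-embryo RNA, fewer cells of a territory and less mRNA per cell cannot be told apart either.

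In wild-type embryos the levels were compared between genes as RPKM, counts scaled to the listed gene length in kilobases and to library size. Otx2 was highest at 14.7 ± 1.15 RPKM (SD, n = 4), and Egr2 was lowest at 0.236 ± 0.0264, a ratio of 62.2 between the means. Between them came Gbx2 at 8.72 ± 1.64, Emx2 at 7.43 ± 0.755, En2 at 7.00 ± 0.988, En1 at 4.42 ± 0.456, Six3 at 4.24 ± 0.201 and Rax at 2.53 ± 0.379. The order therefore did not follow the order of the territories along the brain. The wild-type ranges of Otx2 and Gbx2, of En2 and En1, of Six3 and Rax, and of Rax and Egr2 did not overlap, and in each of these pairs the first gene was the higher one in all 16 embryos. Gbx2 and Emx2, Emx2 and En2, and En1 and Six3 overlapped in the wild-type embryos and are not ordered.

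**Figure D1:**
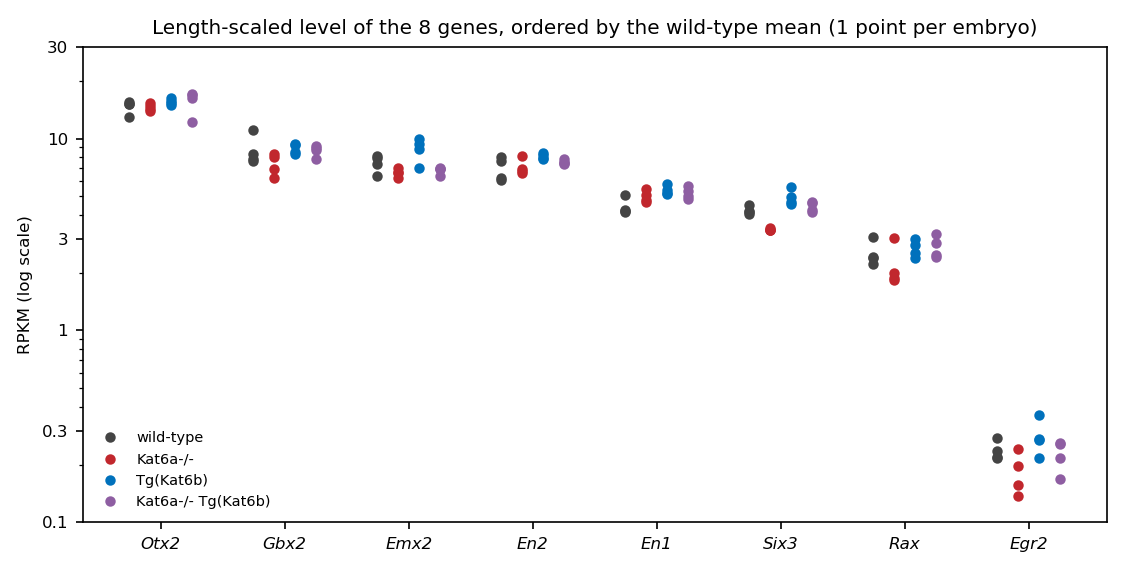
RPKM on a log axis for each gene in each of the 16 embryos, with genes ordered by the wild-type mean and genotypes by colour. Otx2 lies highest and Egr2 lowest in every genotype, and the Six3 points of Kat6a-/- embryos, at 3.32 to 3.43 RPKM, lie under those of the other genotypes, at 4.07 to 5.57.

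Six3 was the member that differed between genotypes. It encodes a SIX-class homeodomain protein that is needed for the anterior forebrain and the eyes, and that represses Wnt genes there. The gene lies on the plus strand of chromosome 17 of GRCm39 from 85920640 to 85936730, with its canonical transcript starting at 85928262. The 250 bases before that start (chr17:85928012-85928261, plus strand) are shown because this is the promoter of the member on which the results turn. The sequence was taken from RefSeq (GRCm38.p6 table) and matched once on that chromosome of GRCm39, with CG dinucleotides in capitals.
Six3: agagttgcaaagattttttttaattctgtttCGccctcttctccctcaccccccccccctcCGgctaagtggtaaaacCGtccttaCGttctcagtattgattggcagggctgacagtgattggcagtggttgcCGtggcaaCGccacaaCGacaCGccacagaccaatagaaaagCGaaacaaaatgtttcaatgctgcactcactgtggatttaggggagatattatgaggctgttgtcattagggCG
The window holds 10 CG dinucleotides against a median of 6 in the same window of 32851 mouse promoters, of which 37.8% hold at least as many. No data here bear on the chromatin of this window.

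In wild-type embryos Six3 was at 14.97, 15.2, 16.7 and 15.5 CPM in replicates 1 to 4. In Kat6a-/- embryos it was at 12.6, 12.4, 12.2 and 12.3 CPM. In Tg(Kat6b) embryos it was at 17.1, 18.3, 20.5 and 16.8 CPM, and in Kat6a-/- Tg(Kat6b) embryos at 15.6, 17.2, 15.2 and 16.98 CPM. All 4 Kat6a-/- embryos thus lay under all 12 others, with only 0.164 CPM of SD among them, while the Kat6a-/- Tg(Kat6b) embryos overlapped both the wild-type and the Tg(Kat6b) embryos.

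Six3 mRNA fell in Kat6a-/- vs. wild-type embryos by 0.34 on the log2 scale (SE 0.0774, edgeR FDR = 0.0269), to 0.793 of the wild-type level (95% interval 0.709 to 0.886). It rose in Kat6a-/- Tg(Kat6b) vs. Kat6a-/- embryos by 0.40 (SE 0.0790, edgeR FDR = 0.00516), that is to 1.32 times the level (95% interval 1.17 to 1.48). Kat6a-/- Tg(Kat6b) and wild-type embryos differed by 0.06 (95% interval -0.11 to 0.23, edgeR FDR = 0.814). In Tg(Kat6b) vs. wild-type embryos the log2 fold change was 0.22 (95% interval 0.06 to 0.37), with every Tg(Kat6b) embryo above every wild-type embryo, but it did not pass the threshold (edgeR FDR = 0.243). It was 0.14 both with litter as a block and without Tg(Kat6b) replicate 3, the embryo with the highest Six3. That embryo also stood apart in summed heart markers (230 CPM against 351 to 413 in the other Tg(Kat6b) embryos), limb bud markers (26.6 against 42.2 to 43.3 CPM) and visceral endoderm markers (0.660 against 18.2 to 42.2 CPM). The interaction term, which asks whether the transgene altered Six3 more without Kat6a than with it, was 0.18 (95% interval -0.05 to 0.41, edgeR FDR = 0.463).

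The rise in Kat6a-/- Tg(Kat6b) vs. Kat6a-/- embryos stayed past the threshold in all 27 alternative settings, with an FDR of 0.0213 at most. Litter as a block was not among these, since the 2 genotypes share no litter, so the rise was not exposed to that setting. The fall in Kat6a-/- vs. wild-type embryos was close to the threshold, kept its direction in all 28 settings and was past it in 16. The FDR was between 0.0539 and 0.112 when wild-type replicate 2, 3 or 4 or any 1 of the 4 Kat6a-/- embryos was left out, and it was 0.0362 without wild-type replicate 1. With litter as a block over 12 embryos the fall was 0.29 on the log2 scale and was not past the threshold (FDR = 0.478), and within litters 801 and 803 the wild-type embryo, at 14.97 and 15.2 CPM, was above both of its Kat6a-/- littermates. The wild-type embryos of litters 2597 and 2598 were likewise under each of their Tg(Kat6b) littermates.

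**Figure D2:**
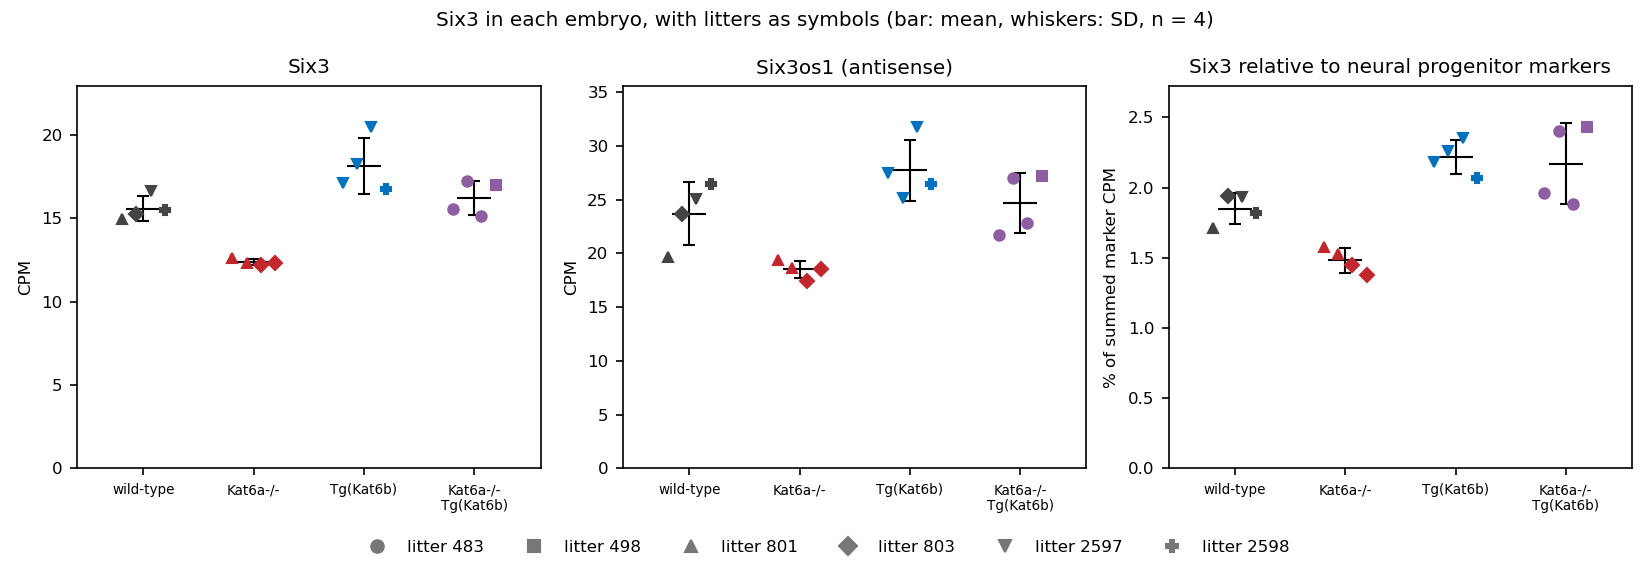
Six3 and its antisense neighbour Six3os1 in CPM, and Six3 as a percentage of the summed CPM of 6 neural progenitor markers, for each embryo by genotype, with litters as symbols and mean and SD as bar and whiskers (n = 4). The Kat6a-/- embryos, from litters 801 and 803, are the lowest in each panel, with Six3 at 12.2 to 12.6 CPM against at least 14.97 in the others.

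General neural progenitor markers (Sox1, Sox2, Sox3, Nes, Hes5 and Fabp7) overlapped between the genotypes in their sum, though not each singly. Their summed level was 785 to 875 CPM in wild-type, 801 to 893 CPM in Kat6a-/-, 783 to 870 CPM in Tg(Kat6b) and 698 to 806 CPM in Kat6a-/- Tg(Kat6b) embryos, and none of the 6 was called in Kat6a-/- vs. wild-type embryos. Six3 relative to that sum was 1.71% to 1.94% in wild-type and 1.38% to 1.58% in Kat6a-/- embryos. It was 2.07% to 2.35% in Tg(Kat6b) and 1.88% to 2.43% in Kat6a-/- Tg(Kat6b) embryos, so the Kat6a-/- embryos again lay under all others. Single markers were called elsewhere, as Nes fell in Tg(Kat6b) vs. wild-type and in Kat6a-/- Tg(Kat6b) vs. Kat6a-/- embryos, and Sox1 and Sox2 fell in Kat6a-/- Tg(Kat6b) vs. Tg(Kat6b) embryos. Nes made up 446 of 844 CPM of the mean sum in wild-type and 460 of 838 CPM in Kat6a-/- embryos. It made up 391 of 819 CPM in Tg(Kat6b) and 387 of 754 CPM in Kat6a-/- Tg(Kat6b) embryos. A lower Nes raises the share of Six3. Sox2 was at 161.9 to 172.3 CPM in wild-type and 155 to 165 CPM in Kat6a-/- embryos. It was higher in Tg(Kat6b) embryos, at 175.4 to 195.3 CPM, and at 151.0 to 161.7 CPM in Kat6a-/- Tg(Kat6b) embryos. Sox1 was at 70.6 to 76.4 CPM in wild-type and 66.3 to 69.9 CPM in Kat6a-/- Tg(Kat6b) embryos. The sum thus hides differences in single markers. Neuronal markers fell in the comparison in which Six3 rose. Of the neuronal genes Tubb3, Elavl3, Elavl4, Dcx and Stmn2, 4 of 5 fell in Kat6a-/- Tg(Kat6b) vs. Kat6a-/- embryos (all but Elavl4), with no marker at 0. The sums of the 5 were 232, 142, 229 and 143 CPM in Kat6a-/- Tg(Kat6b) replicates 1 to 4, against 227 to 292 CPM in Kat6a-/- embryos. Replicates 1 and 3 thus lay in the Kat6a-/- range. Replicates 2 and 4, with the lower sums, had the higher Six3, at 17.2 and 16.98 against 15.6 and 15.2 CPM.

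Some markers of tissues outside the brain differed as well. The summed level of the limb bud genes Tbx5, Tbx4 and Fgf10 was 36.8 to 41.2 CPM in wild-type, 28.8 to 34.4 CPM in Kat6a-/- and 44.7 to 46.9 CPM in Kat6a-/- Tg(Kat6b) embryos, without overlap. None of the 3 was called in Kat6a-/- vs. wild-type embryos, and Tbx5 and Tbx4 rose in Kat6a-/- Tg(Kat6b) vs. Kat6a-/- embryos. The visceral endoderm genes Afp, Ttr and Apoa1 summed to 8.89 to 48.5 CPM in wild-type, 3.15 to 9.67 CPM in Kat6a-/- and 28.7 to 42.5 CPM in Kat6a-/- Tg(Kat6b) embryos, and none of these was called in either comparison (the lowest edgeR FDR was 0.112, for Afp in Kat6a-/- Tg(Kat6b) vs. Kat6a-/- embryos, with a log2 fold change of 2.52). The part of neuronal, limb bud or visceral endoderm cells in the Six3 differences was not tested.

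Six3os1, a non-coding RNA transcribed from the opposite strand next to Six3, gave the same order of genotypes. It was at 19.7, 23.6, 25.0 and 26.4 CPM in wild-type embryos and at 19.4, 18.6, 17.4 and 18.5 CPM in Kat6a-/- embryos, so these ranges were separated by a narrow gap. It was at 27.5, 25.1, 31.7 and 26.5 CPM in Tg(Kat6b) and at 21.7, 27.0, 22.8 and 27.1 CPM in Kat6a-/- Tg(Kat6b) embryos. Six3os1 in Kat6a-/- vs. wild-type embryos had a log2 fold change of -0.35 (SE 0.0914, edgeR FDR = 0.0503), just short of the threshold, and of -0.22 with litter as a block. It rose in Kat6a-/- Tg(Kat6b) vs. Kat6a-/- embryos by 0.41 (SE 0.0935, edgeR FDR = 0.0138). Exons of opposite-strand genes, Six3os1 among them, cover 7.33% of the Six3 exon bases in GENCODE, and the strand setting of the counting is not given in the sources used here, so reads in the shared stretch cannot be told apart. GENCODE gives 5581 exon bases for Six3 against a listed length of 3680, so how much of that stretch was counted is not known.

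Rax, the other eye field gene, which is required for eye formation, gave a noisier picture. It was at 3.70, 5.14, 3.97 and 4.05 CPM in wild-type and at 5.09, 3.05, 3.31 and 3.13 CPM in Kat6a-/- embryos. Of the Kat6a-/- embryos, 3 lay under all wild-type embryos, and replicate 1 lay within the wild-type range. The log2 fold change was -0.26 (95% interval -0.55 to 0.04, edgeR FDR = 0.419), and the interval does not exclude a change as large as that of Six3. It was -0.42 without Kat6a-/- replicate 1 and -0.16 without Kat6a-/- replicate 2, neither past the threshold. Rax was at 3.97 to 5.00 CPM in Tg(Kat6b) and at 4.01 to 5.33 CPM in Kat6a-/- Tg(Kat6b) embryos, and the Rax FDR was 0.351 or more in each pairwise comparison. In GENCODE the gene lies on the minus strand of chromosome 18 of GRCm39 from 66061348 to 66072858, and 27.4% of its exon bases overlap Raxos1 on the opposite strand. GENCODE gives 5846 exon bases against a listed length of 1669, so the overlap of the counted bases is not known.

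Emx2, a homeodomain factor of the dorsal telencephalon and the urogenital system (chromosome 19, 59446804 to 59453789, plus strand), was at 19.1, 16.6, 20.5 and 21.0 CPM in wild-type embryos. It was at 17.5, 17.3, 16.3 and 18.2 CPM in Kat6a-/- embryos and at 18.0, 16.6, 18.0 and 18.3 CPM in Kat6a-/- Tg(Kat6b) embryos. In Tg(Kat6b) embryos it was at 18.3, 22.9, 25.9 and 24.3 CPM, with replicate 1 apart from the other 3. The Tg(Kat6b) range lay just above that of Kat6a-/- Tg(Kat6b) embryos, and the log2 fold change between them was -0.24 (SE 0.0822, edgeR FDR = 0.107). That difference was larger and past the threshold without surrogate variables (-0.36, FDR = 0.0367), and also in the main design without wild-type replicate 2 (FDR = 0.0460) or Tg(Kat6b) replicate 1 (FDR = 0.0439). Unlike Six3, Emx2 in Kat6a-/- Tg(Kat6b) embryos overlapped Kat6a-/- embryos (log2 fold change 0.10, 95% interval -0.06 to 0.26).

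**Figure D3:**
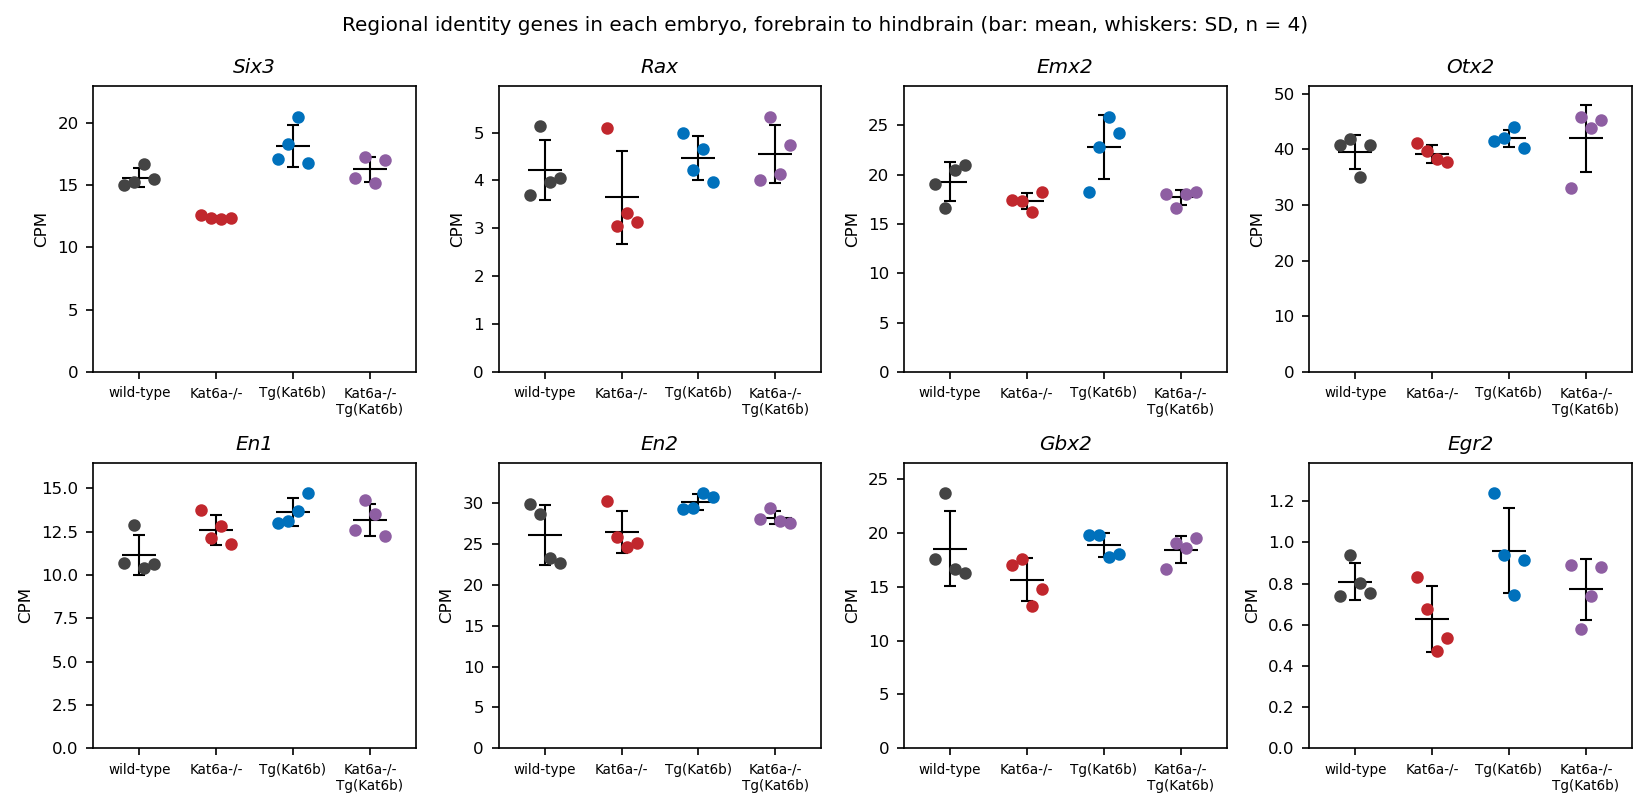
CPM of each of the 8 genes in each embryo by genotype, in the order from forebrain to hindbrain, with the mean and SD as bar and whiskers (n = 4) and each axis starting at 0. In Six3 all 4 Kat6a-/- embryos, at 12.2 to 12.6 CPM, lie under all others, whereas in the other genes the genotypes overlap or nearly touch.

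Otx2, the factor that gives forebrain and midbrain their identity and the most abundant of the 8 (chromosome 14, 48894099 to 48911276, minus strand), differed least. It was at 40.7, 41.8, 35.0 and 40.7 CPM in wild-type embryos and at 41.2, 39.8, 38.2 and 37.6 CPM in Kat6a-/- embryos. The log2 fold change between them was -0.02 (95% interval -0.17 to 0.14, edgeR FDR = 0.936), so a fall as large as that fitted for Six3 lies outside the interval. It was at 41.5, 42.1, 44.0 and 40.3 CPM in Tg(Kat6b) embryos and at 33.0, 45.9, 43.8 and 45.2 CPM in Kat6a-/- Tg(Kat6b) embryos, with all 4 genotypes overlapping. Its log2 fold changes lay between -0.09 and 0.11 over the 5 pairwise comparisons, none past the threshold.

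En1 and En2 encode the engrailed homeodomain repressors, which pattern midbrain and cerebellum on either side of the boundary, and neither has an exon overlap on the opposite strand. En1 (chromosome 1, 120530108 to 120535721, plus strand) was at 10.7, 12.9, 10.4 and 10.6 CPM in wild-type and at 13.0, 13.1, 13.7 and 14.7 CPM in Tg(Kat6b) embryos. These ranges did not overlap, and the log2 fold change was 0.31 (SE 0.0865), yet it did not pass the threshold over all genes (edgeR FDR = 0.155). En1 was at 11.8 to 13.7 CPM in Kat6a-/- and at 12.2 to 14.3 CPM in Kat6a-/- Tg(Kat6b) embryos, so the wild-type mean, at 11.2 CPM, was the lowest of the 4 genotypes.

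En2 (chromosome 5, 28370689 to 28377195, plus strand) was at 29.9, 28.6, 23.3 and 22.7 CPM in wild-type embryos and at 29.3, 29.4, 31.2 and 30.7 CPM in Tg(Kat6b) embryos. The wild-type embryos divided by litter, with both from litters 801 and 803 above both from litters 2597 and 2598. The log2 fold change between these genotypes was 0.24 (SE 0.0711, edgeR FDR = 0.190), and with litter as a block it was 0.39 (edgeR FDR = 0.999). In litters 2597 and 2598 all Tg(Kat6b) embryos were above their wild-type littermates by more than the gap between the wild-type embryos of those litters. En2 was at 24.6 to 30.2 CPM in Kat6a-/- and at 27.6 to 29.3 CPM in Kat6a-/- Tg(Kat6b) embryos, both overlapping wild-type.

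Gbx2, which opposes Otx2 at the boundary and is needed for the anterior hindbrain (chromosome 1, 89855678 to 89858920, minus strand), was at 17.6, 23.7, 16.6 and 16.3 CPM in wild-type embryos. It was at 16.98, 17.6, 13.2 and 14.8 CPM in Kat6a-/- embryos, where 2 of 4 lay under all wild-type embryos. The log2 fold change was -0.24 (SE 0.0765, edgeR FDR = 0.119) and did not pass the threshold. It was -0.14 without wild-type replicate 2, the highest embryo, and -0.39 with litter as a block, again not past it (FDR = 0.485 and 0.478). Within litters 801 and 803 the wild-type embryo was above or level with its Kat6a-/- littermates (17.6 against 16.98 and 17.6, and 23.7 against 13.2 and 14.8 CPM). Gbx2 was at 17.8 to 19.8 CPM in Tg(Kat6b) and at 16.7 to 19.5 CPM in Kat6a-/- Tg(Kat6b) embryos. Opposite-strand exons of D130058E05Rik cover 44.0% of its exon bases, the highest share among the 8 genes, and that gene was not analysed here.

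Egr2, also known as Krox20, which specifies alternate hindbrain segments (chromosome 10, 67371305 to 67378018, plus strand), was measured with only 8 to 40 counts per embryo. It was at 0.740, 0.939, 0.804 and 0.755 CPM in wild-type embryos and at 0.830, 0.678, 0.473 and 0.536 CPM in Kat6a-/- embryos. The log2 fold change was -0.38 (95% interval -0.96 to 0.20, edgeR FDR = 0.555), so neither no change nor a larger fall than that of Six3 can be excluded at this depth. It was at 0.742 to 1.24 CPM in Tg(Kat6b) and at 0.578 to 0.891 CPM in Kat6a-/- Tg(Kat6b) embryos, with every genotype overlapping wild-type.

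The balance between Otx2 and Gbx2 was taken as the ratio of their RPKM within each embryo, in which the size of the library cancels. It was 1.83, 1.39, 1.66 and 1.98 in wild-type embryos and 1.92, 1.78, 2.28 and 2.00 in Kat6a-/- embryos. In Tg(Kat6b) embryos it was 1.65 to 1.95, and in Kat6a-/- Tg(Kat6b) embryos 1.56 to 1.90. The groups overlapped, and none of the 5 comparisons passed a two-sided exact permutation test on the log2 ratio, with p between 0.171 and 0.8286 (0.429 to 0.8286 after Benjamini-Hochberg adjustment over the 5, where 0.0286 is the smallest p that 4 against 4 embryos allow). The difference was largest in Kat6a-/- vs. wild-type embryos, at 0.23 on the log2 scale.

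**Figure D4:**
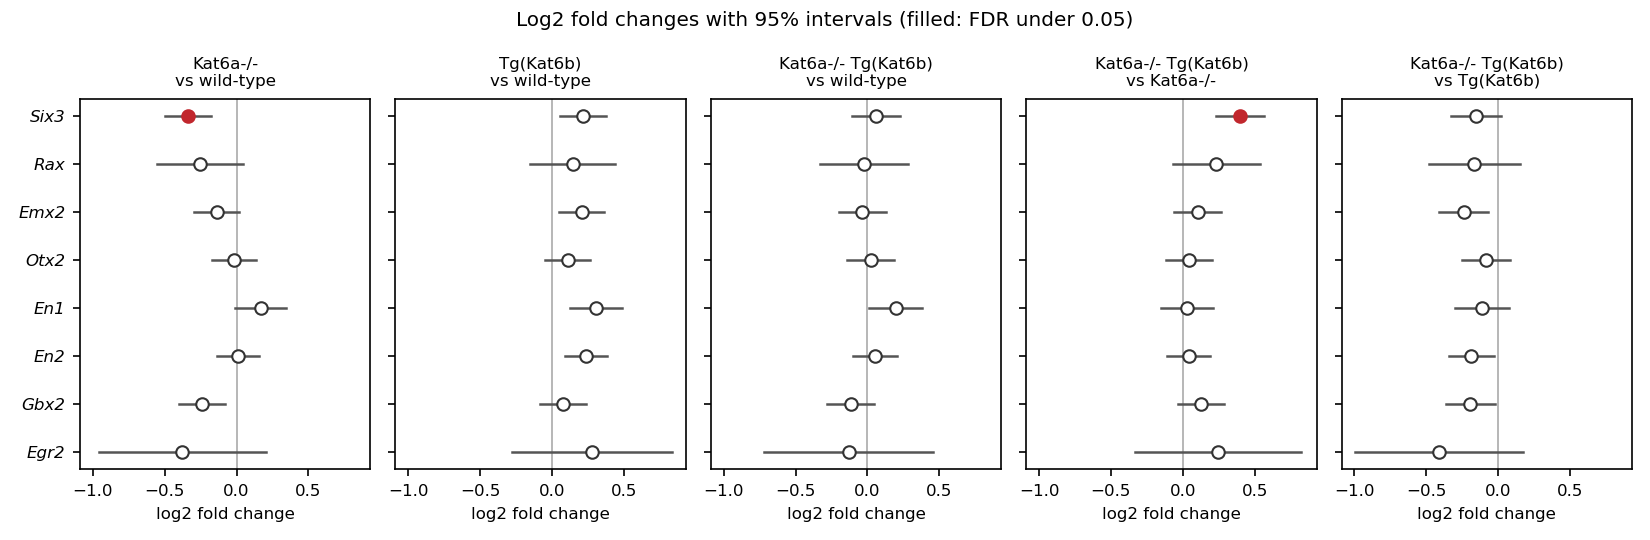
Log2 fold changes of the 8 genes (points) with 95% intervals (lines) in the 5 pairwise comparisons of genotypes, with filled points where the edgeR FDR was under 0.05. Six3 is filled at -0.34 in Kat6a-/- vs. wild-type and at 0.40 in Kat6a-/- Tg(Kat6b) vs. Kat6a-/- embryos, all points lie above 0 in Tg(Kat6b) vs. wild-type embryos, and the Egr2 intervals are the widest.

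Across the 8 genes, 1 fell and 7 did not pass the threshold in Kat6a-/- vs. wild-type embryos, where 1.88% of all genes tested were called. Their median log2 fold change was -0.19, with 6 of 8 below 0 (Otx2 and En2, closest to 0, turned sign in some settings), against a median of 0.00325 and 48.8% below 0 over all genes. Of the 8 genes, 1 rose in Kat6a-/- Tg(Kat6b) vs. Kat6a-/- embryos, where 7.14% of all genes were called. All 8 fold changes were above 0 there, with a median of 0.11 (48.6% of all genes were above 0), but only that of Six3 passed the threshold, and those of Otx2 and En1 turned sign in some settings. These comparisons share the Kat6a-/- embryos, so their opposite signs are not independent.

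In Tg(Kat6b) vs. wild-type embryos edgeR called 0 of 8, where 0.14% of all genes were called. All 8 log2 fold changes were above 0, from 0.08 to 0.31 with a median of 0.21, and stayed above 0 in each alternative setting, while 50.8% of all genes were above 0. No pair of the 8 genes was negatively correlated over the embryos (r of 0.02 to 0.70), and Tg(Kat6b) embryos share litters. These 8 signs are therefore not independent. Of the 8, 4 (Six3, Emx2, En1 and En2) had an unadjusted p under 0.05, as had 11.5% of all genes, and DESeq2 and limma-voom also called 0. Between Kat6a-/- Tg(Kat6b) and wild-type embryos edgeR called 0 of 8, where 0.67% of all genes were called, with a median of about 0 and 1 gene (En1) at an unadjusted p under 0.05, against 12.7% of all genes. DESeq2 and limma-voom called 0 there too.

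Between Kat6a-/- Tg(Kat6b) and Tg(Kat6b) embryos edgeR called 0 of 8, where 3.41% of all genes were called. All 8 were below 0 with a median of -0.18 (Rax was at 0.03 without surrogate variables), and 3 (Emx2, En2 and Gbx2) had an unadjusted p under 0.05, as had 18.9% of all genes. Without surrogate variables En2 was at -0.10 and Gbx2 at -0.03. This comparison shares the Tg(Kat6b) embryos with that of Tg(Kat6b) vs. wild-type, so their opposite signs are not independent either. The interaction term called 0 of 8, where 0.153% of all genes were called, with 1 (En1, log2 0.28 below 0) at an unadjusted p under 0.05, against 14.6% of all genes. DESeq2 and limma-voom called 0 in both. By the separation of the CPM ranges alone, 1 member (Six3) was apart in Kat6a-/- vs. wild-type embryos, where 7.97% of all genes were apart, and none was between Kat6a-/- Tg(Kat6b) and wild-type embryos (all genes, 7.1%). Six3 and En1 were apart in Tg(Kat6b) vs. wild-type embryos (all genes, 4%), Six3 in Kat6a-/- Tg(Kat6b) vs. Kat6a-/- embryos (all genes, 15.2%) and Emx2 in Kat6a-/- Tg(Kat6b) vs. Tg(Kat6b) embryos (all genes, 10.5%).

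Other genes of the same territories were listed as forebrain and eye field genes, diencephalon and midbrain genes, boundary genes, rhombomere genes, and paralogs and partners of the 8. Of 48 listed, 47 were tested, since Egr3 had too few counts. In Kat6a-/- vs. wild-type embryos 6 of 47 fell and 0 rose, which is 12.8% of them, against 1.88% of all genes tested. They were Lhx2 of 15 forebrain genes, Pax2 of 9 boundary genes, Hoxb1, Cyp26b1 and Cyp26c1 of 9 rhombomere genes, and Nab1, and none of 9 diencephalon and midbrain genes was called. The median over the 47 was -0.10. These lists were chosen with earlier results of these data known, so this share and the later shares of the 47 are descriptions and no test of enrichment.

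Lhx2, a LIM homeodomain gene of the eye field and cortex, was the forebrain gene that fell along with Six3. It was at 52.8, 49.8, 49.5 and 55.3 CPM in wild-type and at 41.2, 36.8, 45.0 and 41.5 CPM in Kat6a-/- embryos, without overlap (log2 fold change -0.34, SE 0.0522, edgeR FDR = 0.00123). Pax2, a paired-box gene of the boundary that is also expressed in the otic vesicle, fell from 9.36 to 10.1 CPM in wild-type to 6.38 to 7.91 CPM in Kat6a-/- embryos (log2 fold change -0.40, edgeR FDR = 0.0440), with Oc90, an otic vesicle gene, also called. The otic list held Oc90, Pax2 itself and Otx1, which is also counted as a midbrain gene, so its sum is no independent measure beside Pax2. Oc90 alone was at 1.49 to 3.44 CPM in wild-type and at 0.789 to 1.07 CPM in Kat6a-/- embryos (log2 fold change -1.41, edgeR FDR = 0.00482), and its part in the Pax2 difference was not tested. The Pax2 call was lost in 13 of the 16 fits that left out 1 embryo, with FDR values up to 0.154, and held only without Tg(Kat6b) replicate 1, 3 or 4.

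The rhombomere genes that fell are tied to retinoic acid, the signal that patterns the hindbrain. Cyp26b1, which degrades retinoic acid, had the largest fall of the 6, from 39.4 to 41.9 CPM in wild-type to 22.5 to 27.4 CPM in Kat6a-/- embryos (log2 fold change -0.69, SE 0.0664). The limb bud and visceral endoderm sums given above were also lower in Kat6a-/- embryos, and their part in the falls of Cyp26b1 and the other regional genes was not tested. Hoxb1, the Hox gene of the fourth rhombomere, went from 17.6 to 25.1 CPM to 10.9 to 15.2 CPM (log2 fold change -0.66, SE 0.0729). The paper reports falls of Hox genes as a family, and whole-embryo counts do not place the Hoxb1 fall in the hindbrain. Cyp26c1, another enzyme that degrades retinoic acid, had overlapping ranges of 13.7 to 20.3 CPM and 9.99 to 16.04 CPM (log2 fold change -0.52, edgeR FDR = 0.00961). Nab1, a corepressor that binds Egr proteins, went from 25.6 to 30.7 CPM to 20.8 to 23.4 CPM (log2 fold change -0.34, edgeR FDR = 0.00494). With litter as a block Cyp26b1 (FDR = 0.00556) and Hoxb1 (FDR = 0.0374) stayed past the threshold and the other 4 did not, and without surrogate variables Hoxb1, Cyp26c1 and Pax2 were not called. Cyp26c1 was also lost without wild-type replicate 2 or Kat6a-/- replicate 4 (FDR up to 0.0890).

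Of the 47 genes, 5 rose and 1 fell in Kat6a-/- Tg(Kat6b) vs. Kat6a-/- embryos (12.8% called, against 7.14% of all genes). Hoxb1 (log2 fold change 0.49), Cyp26b1 (0.39), Cyp26c1 (0.36), Nab1 (0.29) and Irx3 (0.17), an Iroquois homeobox gene of the diencephalon and midbrain, rose, whereas Lhx2 and Pax2 were not called. Egr1, an immediate early gene related to Egr2, fell (log2 fold change -0.41, edgeR FDR = 0.0314), from 8.71 to 11.6 CPM to 6.04 to 7.99 CPM. The Cyp26c1 call was lost without any of 7 embryos and the Egr1 call without any of 6, while those of Hoxb1, Cyp26b1, Nab1 and Irx3 held in each of the 16 fits that left out 1 embryo. Against wild-type, only Cyp26b1 was called in Kat6a-/- Tg(Kat6b) embryos (2.13% of the 47, against 0.67% of all genes). It was at 31.7 to 34.0 CPM against 39.4 to 41.9 CPM in wild-type (log2 fold change -0.30, edgeR FDR = 0.0427). This call was lost in 13 of those 16 fits.

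The Tg(Kat6b) vs. wild-type comparison and the interaction term called 0 of the 47 in edgeR, where DESeq2 called 2 and 1 and limma-voom 0. Over all genes DESeq2 called 214 and 138 there, against 22 and 24 in edgeR. An unadjusted p under 0.05 was found for 11 of the 47 (23.4%, against 11.5% of all genes) in the first and for 5 (10.6%, against 14.6%) in the second. In Kat6a-/- Tg(Kat6b) vs. Tg(Kat6b) embryos 5 of the 47 fell and 0 rose (10.6% called, against 3.41% of all genes). They were Hoxb1 (log2 fold change -0.46), Cyp26c1 (-0.46), Lhx5 (-0.45), a LIM homeodomain gene of the forebrain, Otx1 (-0.40), the paralog of Otx2, and Cyp26b1 (-0.28). Otx1 went from 26.4 to 29.2 CPM to 17.3 to 23.9 CPM without overlap, and Otx2 itself was not called there. The calls of Lhx5 and Cyp26b1 were each lost in 10 of the 16 fits that left out 1 embryo, that of Cyp26c1 in 6 and that of Otx1 in 2 (Tg(Kat6b) replicate 1 and Kat6a-/- Tg(Kat6b) replicate 1, without which it was -0.24). Those of Hoxb1 and Cyp26c1 depended on the surrogate variables, as without them Hoxb1 was at -0.20 (FDR = 0.534) and Cyp26c1 at -0.23 (FDR = 0.462), and neither was called with 1 surrogate variable, with sex, with the replicate block or in the fit of the 2 genotypes.

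**Figure D5:**
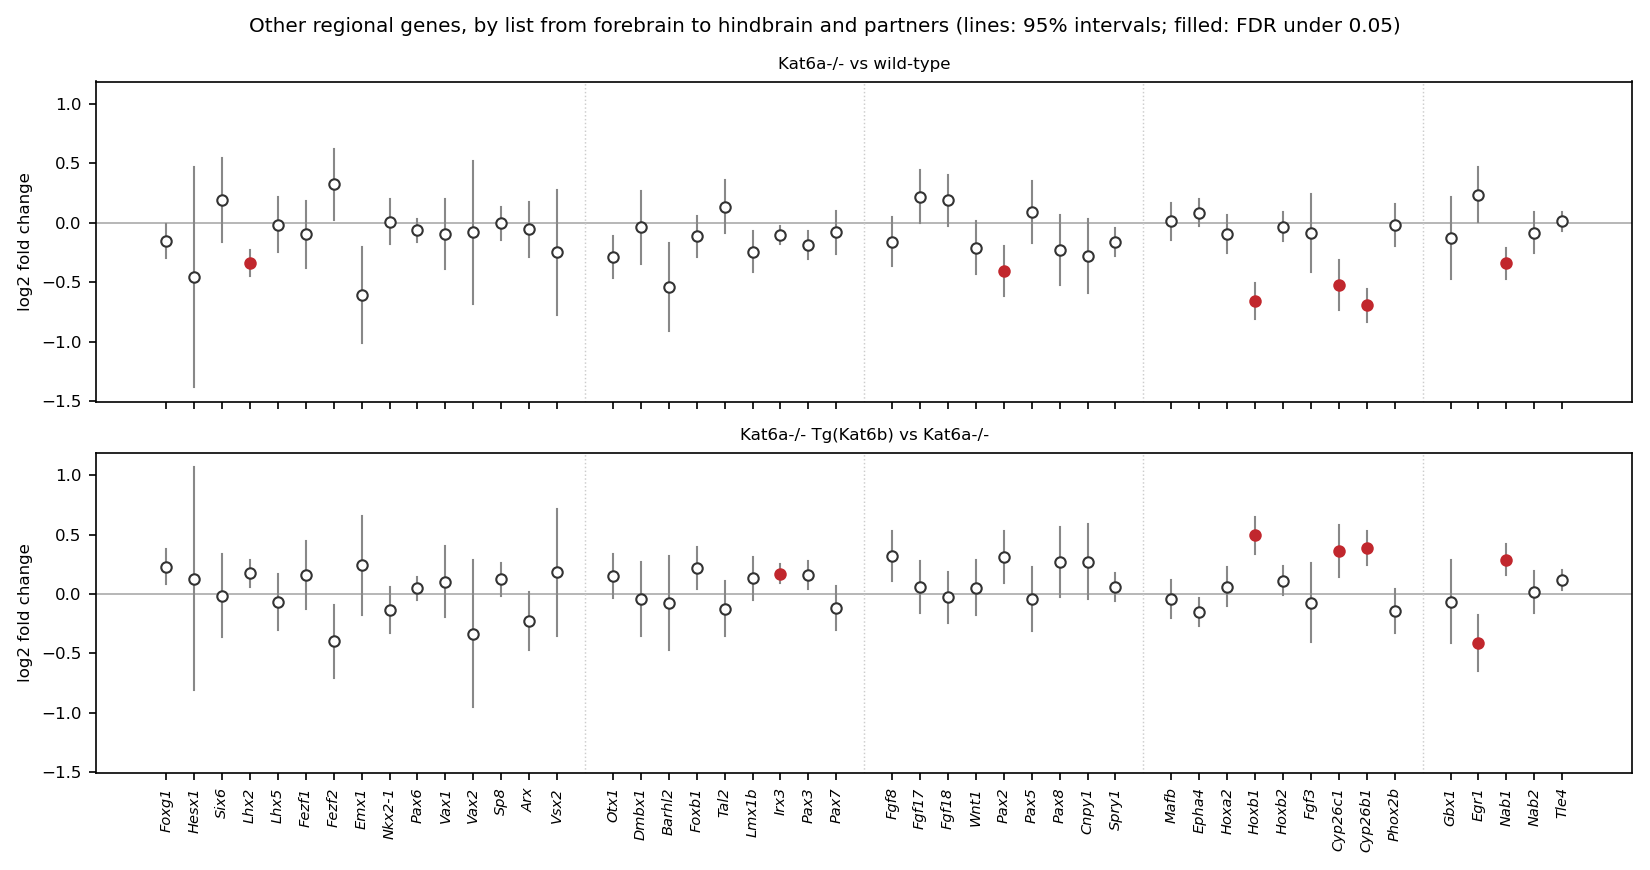
Log2 fold changes with 95% intervals of the other regional genes in Kat6a-/- vs. wild-type embryos (top) and in Kat6a-/- Tg(Kat6b) vs. Kat6a-/- embryos (bottom), grouped by list from forebrain to hindbrain, with paralogs and partners last and each gene drawn once. Filled points mark an edgeR FDR under 0.05, of which there are 6 below 0 in the upper panel, and 5 above and 1 below 0 in the lower panel.

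The 8 genes were also compared by their pattern over the 16 embryos, with Pearson's r of log2 CPM as a description, since the embryos share genotypes, litters and library depth. Among the 28 pairs r was highest for En1 and En2 (0.70), Gbx2 and Egr2 (0.68), Rax and Gbx2 (0.67) and Six3 and Emx2 (0.65), and lowest for Rax and Emx2 (0.02). Over 14039 candidate genes, the pattern of Six3 was most like those of Dlx5 (r = 0.944) and Hoxd4 (r = 0.938), with values of 0.736 and 0.517 once genotype means were removed. For Emx2 they were Frmd5 (0.895) and Cntfr (0.884), for Rax Foxd2os (0.832) and A930033H14Rik (0.825), and for Otx2 Dmbx1 (0.827), a midbrain homeobox gene on the lists above, and Hirip3 (0.815). For En2 they were Bcl10 (0.876) and Ei24 (0.819), and for En1 Nup85 (0.776) and Ppp2r2d (0.747). For Gbx2 they were Fcgbp (0.878) and Atp13a1 (0.850), and for Egr2 Fzr1 (0.869) and Tfap4 (0.864).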

How the data were processed

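RNA-sequencing of whole E9.5 embryos gave 16 libraries. Per the labels and the study's methods, total RNA was made into TruSeq libraries, sequenced as paired ends and aligned to mm39 with Rsubread, and featureCounts is named in the submitters' processing notes. The authors deposited raw counts per gene for each embryo, with Entrez identifiers, symbols and gene lengths. The strand setting and the annotation release are not given in the sources used here.

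Genes were kept by filterByExpr (edgeR 4.0.16, R 4.3.3; minimum count 10, minimum total 15). TMM factors were 0.985 to 1.02. A robust quasi-likelihood model was fitted over all 16 embryos with genotype and 2 surrogate variables (sva 3.50.0 on log2 CPM, prior count 2, genotype protected, 20 permutations) as terms. The Benjamini-Hochberg adjusted p over all 15679 genes is written as edgeR FDR, with 0.05 as the threshold. CPM and RPKM used TMM library sizes and the deposited lengths. Positions are those of GENCODE on GRCm39. Embryos of 1 litter are siblings, so p-values measure the spread between these embryos.

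The 8 genes, the other lists and the tests were chosen with earlier results of these data known. Other regional genes are named in the comparisons in which they were called, and the 2 genes most like each member by Pearson's r among genes with an average log2 CPM above 0. Tests were tested on simulated data first. The alternatives were 0 or 1 surrogate variable, sex, litter or replicate number as terms, DESeq2 size factors, DESeq2 1.42.0, limma-voom (limma 3.58.1), other filters, fits of the 2 genotypes compared, leaving out each embryo, and a threshold of 0.01. Same-numbered embryos of different genotypes did not deviate together in all pairs (r of -0.26 to 0.22 over 24 pairs, 10 over 0.1), so the numbers were not taken as pairs.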

Additional observations from a re-analysis of the deposited data

Results flagged for a closer look

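In 5 of the 32 groups of 4 embryos (8 genes in 4 genotypes) a single embryo lay far from the other 3 by Dixon's test, where chance flags about 1 in 20. Kat6a-/- replicate 1 had Rax at 5.09 CPM against 3.05 to 3.31 in the other Kat6a-/- embryos. Wild-type replicate 3 had Otx2 at 35.0 CPM against 40.7 to 41.8, and Kat6a-/- Tg(Kat6b) replicate 1 had Otx2 at 33.0 CPM against 43.8 to 45.9. Wild-type replicate 2 had En1 at 12.9 CPM against 10.4 to 10.7, and it was also the highest wild-type embryo in Rax, Otx2, Gbx2 and Egr2. Kat6a-/- Tg(Kat6b) replicate 2 had Emx2 at 16.6 CPM against 18.0 to 18.3. No Six3 value was among them.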

How the results depend on the processing

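The Six3 rise in Kat6a-/- Tg(Kat6b) vs. Kat6a-/- embryos kept its direction and its call in all 27 settings (log2 fold change 0.37 to 0.44), which did not include litter as a block. The Six3 fall in Kat6a-/- vs. wild-type embryos kept its direction in all 28 settings and its call in 16. The number of members called there, 1, became 0 at the threshold of 0.01 and with litter as a block. It also became 0 with sex as a covariate (Six3 FDR = 0.0524), with the replicate block (FDR = 0.0536) and in the fit of only those 2 genotypes (FDR = 0.0660). It was 0 to 1 when single embryos were left out. Over all genes the calls there went from 295 in the main fit to 91 with sex and 127 with the replicate block. They were 18 with litter as a block, 85 in the fit of the 2 genotypes and 137 to 432 without single embryos. Between Kat6a-/- Tg(Kat6b) and Tg(Kat6b) embryos the 0 members called became 1 (Emx2) without surrogate variables, with 1 surrogate variable, with sex and with the replicate block (log2 fold change -0.36 in each, FDR 0.0299 to 0.0370), and was 0 to 1 when single embryos were left out (wild-type replicate 2 and Tg(Kat6b) replicate 1 gave 1). Over all genes the calls between Kat6a-/- Tg(Kat6b) and Tg(Kat6b) embryos were 535 in the main fit and 402 to 515 in those other designs. They were 775 without wild-type replicate 2 and 165 without Tg(Kat6b) replicate 1. In the other comparisons the number of members called did not change. The cause of these changes was not tested.

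The other regional genes called in Kat6a-/- vs. wild-type embryos, 6 of 47, were 3 with 0 or 1 surrogate variable, with sex and in the fit of the 2 genotypes, 2 with litter as a block, and 4 to 6 without single embryos. With the replicate block they were 4, without Pax2 (FDR = 0.0858) and Cyp26c1 (FDR = 0.201). Over all genes 95 were called there with no surrogate variable and 96 with 1, and the other all-gene counts are given above. For Kat6a-/- Tg(Kat6b) embryos against wild-type the 1 called became 0 at the threshold of 0.01 and with the replicate block, and was 0 to 1 without single embryos. In Tg(Kat6b) vs. wild-type embryos the 0 called were 2 with DESeq2 (all genes, 214 against 22 in the main fit) and 0 to 1 without single embryos. The 6 called in Kat6a-/- Tg(Kat6b) vs. Kat6a-/- embryos were 3 at the threshold of 0.01 and 4 to 11 without single embryos (11 without wild-type replicate 2 or Tg(Kat6b) replicate 1). Without the one or the other of these, 1510 and 1671 of all genes were called, against 1119 in the main fit. The 5 called in Kat6a-/- Tg(Kat6b) vs. Tg(Kat6b) embryos were 1 in the fit of the 2 genotypes (all genes, 265 against 535 in the main fit). They were 1 at the threshold of 0.01 and 1 to 7 without single embryos. With the replicate block 6 were called there, but not Lhx5 (FDR = 0.0756), Hoxb1 (FDR = 0.283) or Cyp26c1 (FDR = 0.456), and Cyp26c1 was also not called in Kat6a-/- Tg(Kat6b) vs. Kat6a-/- embryos (FDR = 0.0908). For the interaction the 0 called were 1 with DESeq2 (all genes, 138 against 24 in the main fit) and 0 to 1 without single embryos.

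Of 1247 values of the members' log2 fold changes under the settings, 48 had the opposite sign, all within 0.18 of 0 and with an FDR of 0.687 or more. In Kat6a-/- vs. wild-type embryos En2 was -0.15 with litter as a block, -0.0049 with limma-voom and -0.064 to 0.081 without single embryos, and Otx2 was -0.075 to 0.019 without single embryos. For Kat6a-/- Tg(Kat6b) embryos against wild-type, Rax was 0.12, 0.11 and 0.11 with no or 1 surrogate variable or sex, 0.12 with the replicate block, 0.042 without a filter, 0.12 in the fit of the 2 genotypes and -0.085 to 0.094 without single embryos. There Gbx2 was 0.0038 with the replicate block and -0.15 to 0.055 without single embryos, and Otx2 was -0.032 to 0.16 without them. Between Kat6a-/- Tg(Kat6b) and Kat6a-/- embryos En1 was -0.00072 with at least 10 counts in every embryo and -0.0038 to 0.081 without single embryos, and Otx2 was -0.016 to 0.18. Between Kat6a-/- Tg(Kat6b) and Tg(Kat6b) embryos Rax was 0.031, 0.026, 0.025, 0.034 and 0.028 with no or 1 surrogate variable, sex, the replicate block and the 2 genotypes, and Otx2 was -0.16 to 0.061 without single embryos. In the interaction Otx2 was 0.0095, 0.011, 0.0079 and 0.0073, and Egr2 0.084, 0.087, 0.085 and 0.084, with no or 1 surrogate variable, sex and the replicate block. Without single embryos they were -0.14 to 0.077 and -0.18 to 0.18, Rax was -0.014 to 0.29 and Gbx2 -0.023 to 0.11. The replicate block changed no other call of a member.

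The difference in the log2 ratio of Otx2 to Gbx2 turned sign without single embryos in Kat6a-/- Tg(Kat6b) vs. wild-type (-0.027 to 0.14), Tg(Kat6b) vs. wild-type (-0.047 to 0.12) and Kat6a-/- Tg(Kat6b) vs. Tg(Kat6b) embryos (-0.011 to 0.085), with none past the threshold. The wild-type RPKM of each gene moved by less than 1 SD under other library sizes or without single embryos. Litter as a block could be fitted only for the comparisons of Kat6a-/- and of Tg(Kat6b) with wild-type embryos. Depth limits Egr2 most, at 8 to 40 counts per embryo.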
